A study of Sus scrofa with 599 samples.

Results

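The genes described here encode the proteins of the mitochondrial ribosome (mitoribosome) and carry the symbols MRPL, for the large subunit, or MRPS, for the small subunit, followed by a number in the pig annotation. Of the 21280 protein-coding genes (PCGs) in the expression table, 14821 have a symbol and 64 are members of this set, 40 of them MRPL and 24 MRPS. They were measured in adipose tissues (ATs) of female Bama miniature pigs, 2 years old, in 3 nutritional groups. NC pigs received normal chow. WG pigs gained weight during 22 weeks of high-fat feeding. WL pigs had gained weight in the same way and were afterwards given only 10% of the NC calories over 12 weeks. The visceral ATs (VATs) were the greater omentum (GOM), the mesenteric depot (MAD) and the retroperitoneal depot (RAD), and the upper layer of backfat (ULB) was the subcutaneous one. Total RNA-seq libraries numbered 9, 12, 12 and 5 for NC, 45, 36, 39 and 38 for WG, and 10 each for WL, in the order GOM, MAD, RAD and ULB. Whole tissue was sequenced, so a lower level can mean fewer cells of a type or less RNA per cell, which cannot be told apart.

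The mitoribosome translates the few messages that the mitochondrial genome encodes, all of them for membrane subunits of the respiratory chain and of ATP synthase. Its own proteins are encoded in the nucleus, made in the cytosol and imported, while its rRNAs are transcribed inside the organelle. In adipocytes, mitochondria serve fatty acid oxidation, lipid synthesis and, in thermogenic fat, heat production. NRF1, ETS-family factors such as GABP, and YY1 are textbook regulators of nuclear genes for mitochondrial proteins.

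The promoter windows of 62 members (250 bases before to 50 bases after the start, from RefSeq on Sscrofa11.1) were searched on both strands for an ETS core, CCGGAAG, for a YY1 motif and for an NRF1 motif. The ETS core was in 17 of 62 windows (27.4%, against 12.5% of 13532 promoters), the YY1 motif in 4 (6.45% against 2.30%) and the NRF1 motif in 1 (1.61% against 1.29%). Some motif was in 20 windows (32.3% against 15.2%). A match is a run of letters and not a measured binding site. The 7 windows shown are those of MRPL57 and MRPL12, whose levels varied most widely together with those of MRPL28, of MRPL35 and MRPL58, which were lower in ULB of WG pigs, of MRPS34, which has 3 ETS cores, and of the neighbours MRPL46 and MRPS11. Each runs 5′ to 3′ on the strand of its gene, with motif matches in capitals, and CTTCCGG is the ETS core on the opposite strand. MRPL57 (chr11:1320596-1320895, plus strand) held none of the motifs. MRPL12 (chr12:1203768-1204067, minus) held 1 ETS core, and MRPL35 (chr3:58575061-58575360, minus) held an ETS core and the only NRF1 match among the members. MRPL58 (chr12:6265816-6266115, minus) held an ETS core and a YY1 match, and MRPS34 (chr3:40193828-40194127, plus) held only ETS cores. MRPL46 (chr1:191321740-191322039, plus) and MRPS11 (chr1:191321902-191322201, minus) lie head to head, and their windows overlap and share 1 YY1 match.
MRPL57: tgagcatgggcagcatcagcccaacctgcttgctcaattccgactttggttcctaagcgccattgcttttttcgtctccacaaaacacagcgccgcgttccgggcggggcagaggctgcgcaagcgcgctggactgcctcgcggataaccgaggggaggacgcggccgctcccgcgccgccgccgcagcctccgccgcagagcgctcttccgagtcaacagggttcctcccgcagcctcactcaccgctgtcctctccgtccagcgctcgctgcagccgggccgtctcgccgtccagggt
MRPL12: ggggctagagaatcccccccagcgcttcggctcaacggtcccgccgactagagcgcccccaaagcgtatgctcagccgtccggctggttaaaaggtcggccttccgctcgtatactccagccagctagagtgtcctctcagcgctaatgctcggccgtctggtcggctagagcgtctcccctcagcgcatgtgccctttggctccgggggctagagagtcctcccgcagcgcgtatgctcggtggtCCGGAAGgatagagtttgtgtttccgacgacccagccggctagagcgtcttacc
MRPL35: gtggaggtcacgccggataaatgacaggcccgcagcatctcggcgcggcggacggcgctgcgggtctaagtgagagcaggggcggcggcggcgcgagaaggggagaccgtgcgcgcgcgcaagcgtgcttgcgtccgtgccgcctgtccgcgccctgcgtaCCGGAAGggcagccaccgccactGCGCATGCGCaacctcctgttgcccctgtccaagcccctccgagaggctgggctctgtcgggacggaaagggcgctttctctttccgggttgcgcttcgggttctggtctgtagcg
MRPL58: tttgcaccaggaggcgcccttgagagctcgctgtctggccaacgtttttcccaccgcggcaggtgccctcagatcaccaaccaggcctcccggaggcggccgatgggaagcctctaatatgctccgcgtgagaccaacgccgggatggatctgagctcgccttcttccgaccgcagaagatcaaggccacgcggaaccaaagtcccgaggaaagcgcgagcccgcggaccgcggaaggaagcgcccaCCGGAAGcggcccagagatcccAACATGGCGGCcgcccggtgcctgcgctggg
MRPS34: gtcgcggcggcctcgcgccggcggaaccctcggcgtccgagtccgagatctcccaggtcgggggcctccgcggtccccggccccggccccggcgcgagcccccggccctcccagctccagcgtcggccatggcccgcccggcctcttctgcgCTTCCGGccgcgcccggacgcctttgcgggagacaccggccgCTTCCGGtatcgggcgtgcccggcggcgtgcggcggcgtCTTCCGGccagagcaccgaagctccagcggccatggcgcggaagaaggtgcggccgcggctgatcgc
MRPL46: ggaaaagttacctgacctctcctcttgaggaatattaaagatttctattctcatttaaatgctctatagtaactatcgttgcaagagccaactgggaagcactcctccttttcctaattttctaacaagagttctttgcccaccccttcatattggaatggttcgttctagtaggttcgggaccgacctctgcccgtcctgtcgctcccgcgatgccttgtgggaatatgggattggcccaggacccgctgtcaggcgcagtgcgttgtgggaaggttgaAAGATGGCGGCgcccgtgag
MRPS11: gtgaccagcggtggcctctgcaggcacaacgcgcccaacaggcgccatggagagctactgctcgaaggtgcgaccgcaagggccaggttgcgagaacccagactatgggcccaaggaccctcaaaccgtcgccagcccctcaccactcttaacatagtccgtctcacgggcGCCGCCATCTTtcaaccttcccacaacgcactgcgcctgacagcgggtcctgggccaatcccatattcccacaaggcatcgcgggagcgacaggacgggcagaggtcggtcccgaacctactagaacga

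The 236 libraries held 3337098 to 22939420 estimated counts on PCGs (median 16791659), of which the members took 6304.99 to 46154.3 (median 27246.6). Libraries stood apart in 3 ways that the labels do not explain. PCGs held less than 88% of the summed TPM in 17 of 38 NC, 6 of 158 WG and 17 of 40 WL libraries. The 13 mitochondria-encoded genes held 0.963 to 7.29% of the summed TPM in 88 WG libraries and 10.7 to 31.6% in the other 70, with none between. In NC, 8 libraries lay at 1.89 to 4.50% and 30 at 9.70 to 37.4%, and all 40 WL libraries lay at 0.531 to 3.23%. A line at 9%, drawn after the data were seen, separates these low-share and high-share libraries. All 9 NC GOM libraries were of high share, and the other NC ATs held 3 (MAD), 3 (RAD) and 2 (ULB) low-share libraries. No label names a batch, and in 42 of the 45 replicate numbers of WG all libraries of a number fell on the same side. In NC, 6 of 12 replicate numbers had libraries on both sides. WG GOM replicate 35 held the fewest counts, and MRPL57 alone reached 1598 TPM there. All 8 adipocyte markers were detected in all groups, with summed TPM from 3903 to 35264, and the median of no adipocyte marker was 0 in any group.

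The members were expressed at moderate and fairly even levels. Expression per length (TPM), averaged over the 12 group means, had a median of 30.3 over the 64 members, 29.9 for large and 32.5 for small subunit genes. It was above 10 TPM for 58 members and under 5 TPM for 0, and 46 members were above 0.5 TPM in all 236 libraries. The highest levels were those of MRPL33 (124 TPM), MRPL34 (106 TPM), MRPL24 (103 TPM) and MRPL12 (101.8 TPM), all of the large subunit, and MRPS26 (91.3 TPM) of the small subunit. MRPL33, MRPL34 and MRPL24 are counterparts of proteins of the bacterial large subunit, and MRPL12 forms the flexible stalk that recruits translation factors. The lowest were MRPL37 (9.29 TPM), MRPL48 (8.77 TPM), MRPL58 (7.97 TPM), MRPL22 (7.61 TPM) and MRPL36 (7.37 TPM), 16.8-fold below MRPL33. The ranges of group means of the 5 highest genes overlapped, as did those of the 5 lowest. The order within either end was not tested, nor was it examined within single groups.

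**Figure D1:**
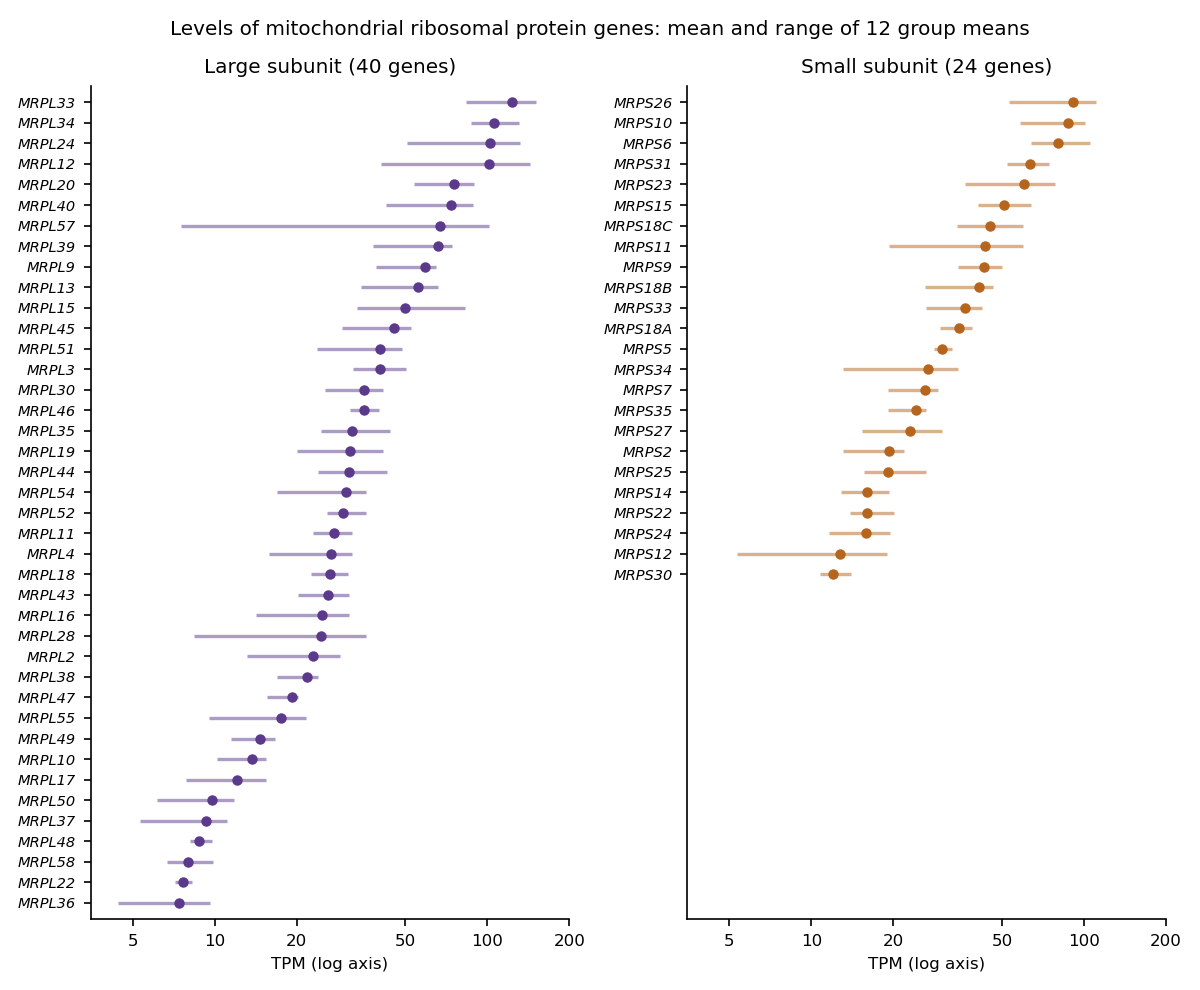
Levels of the 40 large subunit and 24 small subunit genes in TPM on a log axis. Points are means of the 12 diet-by-depot group means, and lines run from the lowest to the highest group mean; MRPL57 has the longest line and MRPL22 one of the shortest.

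The lines in the plot of levels are short for most members. The range of group means was under 1 on the log2(TPM + 1) scale for 47 of 64 members, and its median was 0.75. MRPL57 (3.58), MRPL28 (1.98), MRPL12 (1.79), MRPS12 (1.66) and MRPS11 (1.58) had the widest ranges, and each of the 5 had its lowest group mean in NC GOM. MRPL22, which lines the exit tunnel, had the narrowest (0.19). The 3 genes that descend from the bacterial gene for protein S18 had unlike levels among themselves. MRPS18C had its highest group mean, 59.7 ± 9.0 TPM (SD, n = 5), in NC ULB and its lowest, 34.3 ± 11.3 TPM (n = 12), in NC MAD. MRPS18A stayed between 29.6 and 38.9 TPM, and MRPS18B between 26.2 ± 5.9 TPM (n = 9) in NC GOM and 46.4 ± 16.1 TPM (n = 12) in NC MAD. MRPS30, named for the small subunit but placed in the large one in structures of the mammalian mitoribosome, lay between 10.8 and 13.98 TPM in all groups. Subunit counts here follow the symbols, so MRPS30 counts as a small subunit gene. The place of the other members in structures was not checked.

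MRPL57 (chr11:1320846-1321829, plus strand), a protein found only in mitochondrial ribosomes, differed most between low-share and high-share libraries. In GOM of WG pigs it lay at 2.18 to 24.5 TPM (median 7.48) in the 18 high-share libraries and at 56.7 to 1598 TPM (median 111) in the 27 low-share ones. In ULB of WG pigs, the 18 high-share libraries lay at 3.66 to 33.7 TPM (median 6.66) and the 20 low-share ones at 93.0 to 186 TPM (median 145). In MAD they lay at 2.02 to 36.4 TPM and 80.4 to 168 TPM, and the 2 sets did not overlap in these 3 ATs. In RAD they overlapped, at 2.52 to 77.8 TPM in high-share and 51.01 to 152 TPM in low-share libraries. The NC ULB replicates 2, 5, 7, 9 and 12 held 101, 12.9, 148, 5.44 and 13.02 TPM, and the 2 high values are those of the 2 low-share libraries. NC MAD showed the same division, with 3.90 to 28.6 TPM in 9 high-share and 74.7 to 133 TPM in 3 low-share libraries. MRPL12 moved the same way in GOM of WG pigs, from 35.6 to 101 TPM (median 67.0) in high-share and from 104 to 851 TPM (median 152) in low-share libraries. MRPL11, which sits at the base of the stalk and contacts elongation factors, moved the opposite way, from 29.3 to 47.0 TPM (median 37.0) in high-share to 1.37 to 32.1 TPM (median 17.1) in low-share libraries.

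**Figure D2:**
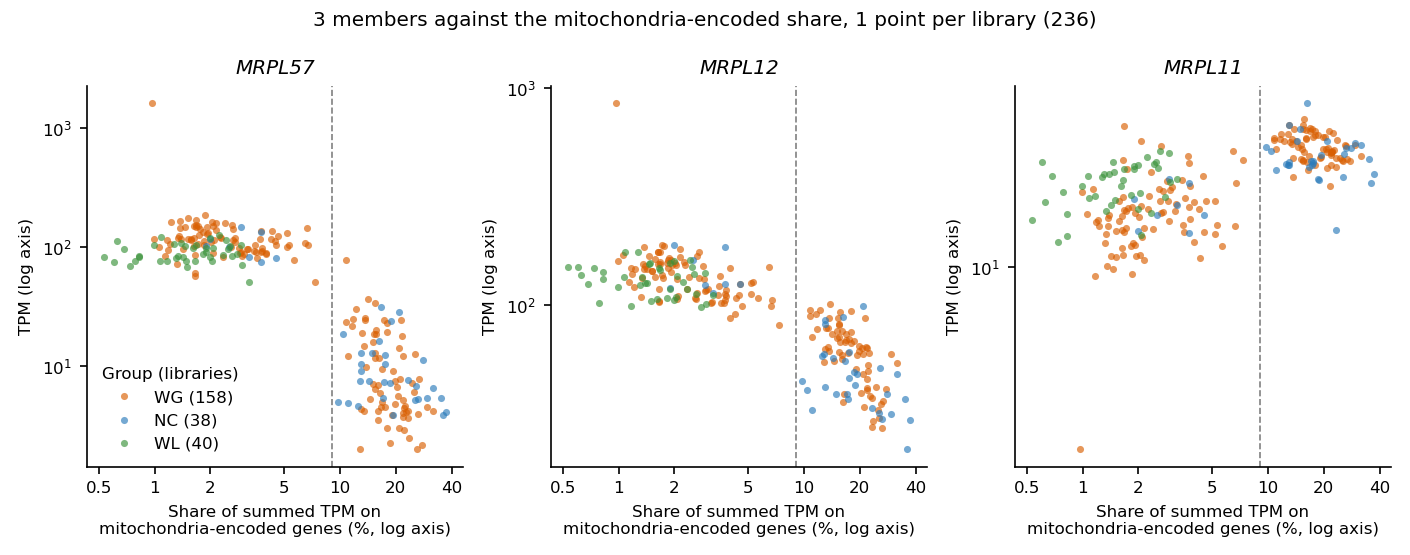
TPM of MRPL57, MRPL12 and MRPL11 (log axis) against the share of summed TPM on the 13 mitochondria-encoded genes (%, log axis), 1 point for each of 236 libraries, coloured by nutritional group. The dashed line is at 9%: MRPL57 and MRPL12 are mostly higher to its left, and MRPL11 is mostly lower.

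Most members followed MRPL57 rather than MRPL11. Mean log2 CPM within WG was higher in the low-share libraries for 50 (GOM), 52 (MAD), 54 (RAD) and 56 (ULB) of 64 members. The median difference over members was 0.48, 0.51, 0.48 and 0.69, beside -0.01, 0.02, 0.03 and 0.02 over all genes. MRPL57 had the largest difference in each AT (4.01, 3.79, 3.502 and 4.14) and MRPL11 the most negative one (-1.01, -0.96, -0.88 and -0.81). These values are given without a test, since the line was drawn after seeing the data. Each diet comparison is therefore given over all libraries and again among libraries on the same side of the line.

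From NC to WG in GOM, 17 members rose and 4 fell among all libraries (edgeR's quasi-likelihood test, Benjamini-Hochberg adjusted p below 0.05). Of all 14251 genes tested, 18.7% rose and 19.9% fell. Of the large subunit 13 genes rose and 3 fell, and of the small subunit 4 rose and 1 fell. The median log2 fold change was 0.32 over the members and 0.00 over all genes. MRPL57 rose from 3.89 to 18.6 TPM (median 5.23) in NC to 2.18 to 1598 TPM (median 87.8) in WG, a log2 fold change of 3.64 (SE 0.93, adjusted p = 0.00195). MRPL28, which has a bacterial counterpart, was at 5.75 to 11.4 TPM (median 9.05) in NC and 7.41 to 196 TPM (median 24.6) in WG (log2 fold change 1.5001, SE 0.41, adjusted p = 0.0033). MRPL12 rose from 21.5 to 59.3 TPM (median 40.4) in NC to 35.6 to 851 TPM (median 117) in WG (log2 fold change 1.44, SE 0.38, adjusted p = 0.00265). For all 3 genes, the WG range reached down into that of NC.

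MRPS22 (chr13:80006656-80232107, plus), a small subunit protein of mitochondria alone whose mutation causes a respiratory chain deficiency in humans, fell most in GOM. It was at 15.9 to 23.6 TPM (median 20.8) in NC and 4.72 to 19.2 TPM (median 15.3) in WG, a log2 fold change of -0.70 (SE 0.09, adjusted p = 4.18e-09, edgeR). MRPL3 (-0.59, SE 0.17, adjusted p = 0.00570) and MRPL11 (-0.58, SE 0.20, adjusted p = 0.0209) fell less. MRPL3 lies beside the centre where peptide bonds form. Without WG GOM replicate 35, 28 members rose and 7 fell, beside 26% and 21.9% of all genes. MRPL57 then rose by 2.999 on the log2 scale and MRPS22 changed by -0.65.

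The direction of the calls in GOM was different among high-share libraries alone. Between the 9 NC and the 18 WG high-share libraries of GOM, 2 members rose and 9 fell (12.3% and 14.4% of all genes), and the median log2 fold change was -0.12. The 2 that rose were MRPS2 (0.46, SE 0.10, adjusted p = 0.00103) and MRPL4 (0.41, SE 0.12, adjusted p = 0.00992), both with bacterial counterparts. MRPS22 stayed lower by about the same amount (-0.68, SE 0.08, adjusted p = 2.68e-07), followed by MRPS18C (-0.64) and MRPS25 (-0.54). GOM has no low-share NC library, and only 2 of its NC libraries had 88% or more of TPM on PCGs. Of the adipocyte markers, 4 of 8 rose in GOM over all libraries and 1 of 8 among high-share libraries. Their part in the members' rise was not tested.

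In RAD the members that changed were mostly lower in WG. Of 64 members, 21 fell and 2 rose from NC to WG (17.6% and 16.7% of 13571 genes), with 12 of the 21 in the large and 9 in the small subunit. MRPL44 (chr15:125732419-125739819, plus), a protein related to RNase III whose mutation causes an infantile cardiomyopathy, fell from 31.8 to 66.7 TPM (median 39.3) to 20.8 to 42.5 TPM (median 29.5), a log2 fold change of -0.72 (SE 0.10, adjusted p = 1.45e-07, edgeR). MRPS6 (-0.59, SE 0.12, adjusted p = 0.000133) and MRPS18C (-0.59, SE 0.14, adjusted p = 0.00120) fell as well. MRPS11 (0.47, SE 0.18, adjusted p = 0.0402) and MRPL16 (0.33, SE 0.12, adjusted p = 0.0273) rose, but among low-share libraries their log2 fold changes were 0.0070 and -0.027. Among the 9 NC and 16 WG high-share libraries, 25 members fell and 1 rose (17.6% and 15.5% of all genes), with a median of -0.23 and with MRPS22 (-0.73), MRPL44 (-0.68), MRPS33 (-0.68), MRPS6 (-0.66) and MRPL15 (-0.64) in front. Among the 3 NC and 23 WG low-share libraries, 7 members were called (6.05% of all genes), all lower, led by MRPL44 (-0.91, SE 0.19, adjusted p = 0.00458), MRPL30 (-0.78) and MRPL15 (-0.74). Over all libraries of RAD, 3 of 7 macrophage, 2 of 4 T cell and 3 of 4 smooth muscle markers rose (median 0.83 for the last), while 3 of 8 adipocyte markers fell and 1 rose. Their part in the members' values was not tested. Of the 12 NC libraries of RAD, 6 were of low PCG share. Without the libraries of low PCG share (6 NC, 39 WG) 10 members were called, all lower. The share of all genes in that fit is not given here, so the smaller count cannot be read as particular to the members.

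In MAD, 6 members fell and 1 rose (9.45% and 9.14% of 13845 genes). MRPS12, part of the decoding centre, rose by 0.77 on the log2 scale (SE 0.27, adjusted p = 0.0405, edgeR), from 2.99 to 15.3 TPM (median 6.21) to 3.33 to 28.7 TPM (median 12.4). MRPS22 (-0.42, SE 0.09, adjusted p = 0.000599), MRPL58 (-0.40, SE 0.11, adjusted p = 0.00771) and MRPL52 (-0.37, SE 0.12, adjusted p = 0.0238) fell. MRPL58 is a peptidyl-tRNA hydrolase that became part of the mitoribosome and frees stalled ribosomes. Among high-share libraries (9 NC, 18 WG) 6 members were called, all lower, led by MRPL45 (-0.57), which anchors the ribosome to the inner membrane (7.12% of all genes fell and 7.54% rose). Among low-share libraries (3 NC, 18 WG) 0 members were called by edgeR, 14 had an unadjusted p below 0.05, and 0.827% of all genes were called. All 7 tested macrophage markers rose in MAD, over all libraries and among those of high share, and their part in the members' values was not tested.

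In ULB, with 5 NC libraries, 3 members were called, all lower, beside 2.24% of 13600 genes that fell and 0.618% that rose. MRPL35 had 31.2, 78.8, 28.1, 27.7 and 54.2 TPM in NC replicates 2, 5, 7, 9 and 12 and 23.1 to 45.9 TPM (median 30.0) in WG (log2 fold change -0.63, SE 0.15, adjusted p = 0.0133, edgeR). MRPL58 had 7.52, 12.1, 7.06, 7.47 and 10.2 TPM in the same 5 replicates and 4.08 to 9.50 TPM (median 6.89) in WG (-0.46, SE 0.12, adjusted p = 0.0229). MRPS22 had 16.995, 19.99, 16.4, 17.3 and 16.8 TPM and then 9.78 to 19.4 TPM (median 14.3) in WG (-0.45, SE 0.11, adjusted p = 0.0121). For MRPL35 and MRPL58, replicates 5 and 12 are the high ones, and the number of members called was 0 without replicate 5 and 1 without replicate 9 or 12. Each of these fits rests on 4 NC libraries, and the shares of all genes in them are not given here. Among high-share libraries (3 NC, 18 WG) 12 members were called, all lower (5.87% of all genes fell and 2.74% rose), led by MRPL35 (-1.09), MRPL45 (-0.92) and MRPL15 (-0.88). Among low-share libraries (2 NC, 20 WG) 0 were called by edgeR, 4 had an unadjusted p below 0.05, and 0.559% of all genes were called.

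**Figure D3:**
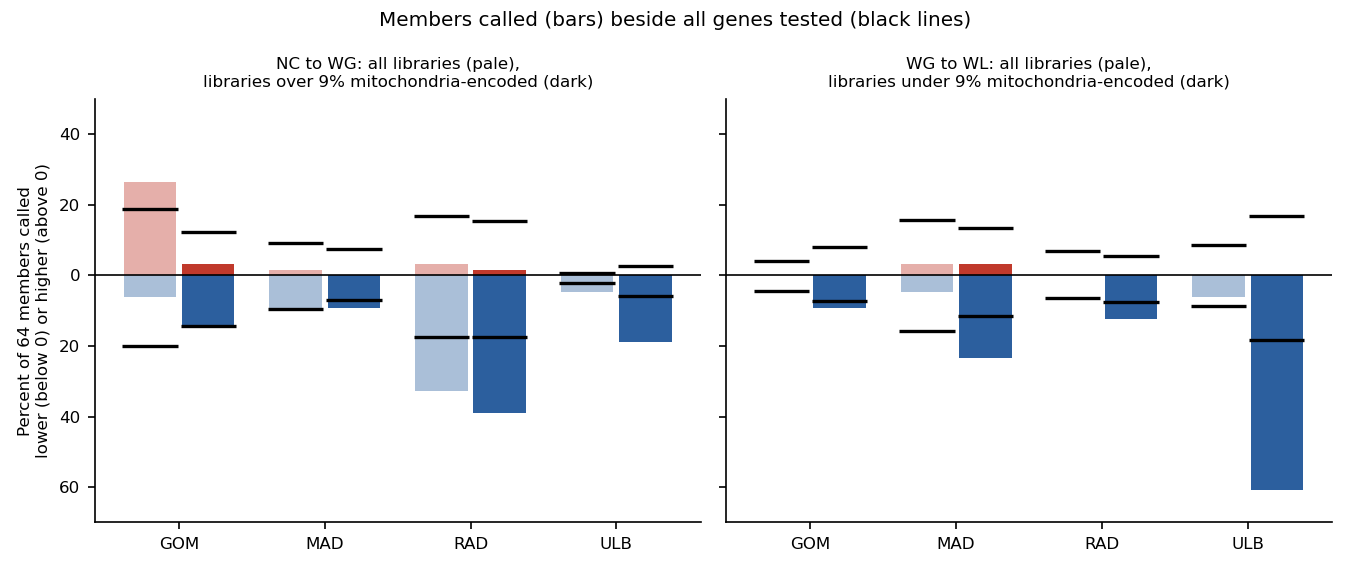
Percent of the 64 members called higher (above 0) or lower (below 0) from NC to WG (left) and from WG to WL (right) in each AT, over all libraries (pale bars) and within high-share or low-share libraries (dark bars); black lines give the percent of all genes tested. From WG to WL in ULB, the dark bar reaches 39 of 64 members lower, beside 18.2% of all genes.

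From WG to WL few members changed over all libraries. In GOM 0 members were called, where 4.2% of 13906 genes rose and 4.3% fell, and in RAD 0 were called, where 6.78% of 13548 rose and 6.31% fell. At an unadjusted p below 0.05 there were 5 in GOM and 3 in RAD, and DESeq2 called 1 in each. In MAD, 2 members rose and 3 fell (15.6% and 15.7% of 13918 genes). MRPS25, a mitochondria-specific small subunit protein, rose from 9.22 to 25.6 TPM (median 15.5) to 15.1 to 36.3 TPM (median 25.98), a log2 fold change of 0.74 (SE 0.13, adjusted p = 4.40e-05, edgeR). MRPL52 rose (0.45, SE 0.14, adjusted p = 0.0121), and MRPL58 (-0.36), MRPS31 (-0.33) and MRPS30 (-0.23) fell. In ULB, 4 members were called, all lower (8.7% of 13633 genes fell and 8.52% rose). MRPS18C fell from 30.1 to 83.9 TPM (median 54.3) to 26.2 to 61.9 TPM (median 35.9), by 0.62 on the log2 scale (SE 0.15, adjusted p = 0.00271). MRPL44 (-0.46) and MRPS31 (-0.34) fell too.

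All WL libraries were of low share, and against the low-share WG libraries alone the members called were mostly lower in WL. The clearest case was ULB, where 39 of 64 members fell and no member was called higher (18.2% of 13630 genes fell and 16.7% rose, edgeR). Of the large subunit 29 of 40 fell and of the small subunit 10 of 24, and the median log2 fold change over members was -0.32. MRPL57 fell from 93.0 to 186 TPM (median 145) in 20 WG libraries to 70.2 to 125 TPM (median 92.9) in 10 WL libraries, by 0.78 on the log2 scale (SE 0.14, adjusted p = 0.000103). MRPL15 fell from 47.8 to 86.5 TPM (median 71.9) to 42.9 to 57.1 TPM (median 49.8), by 0.71 (SE 0.11, adjusted p = 1.70e-05). Both ranges of WL still overlapped those of WG. MRPS18C (-0.67), MRPL40 (-0.66), MRPL37 (-0.65) and MRPS33 (-0.64) followed. In the same fit, 3 of 8 adipocyte markers rose and 4 of 5 fibroblast or progenitor markers fell, and 3 of the 10 WL and 1 of the 20 WG libraries were of low PCG share. Their part in the members' values was not tested.

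In GOM, WG replicate 35 decided the count. With it, 6 members were called among low-share libraries, all lower (7.13% of 13850 genes fell and 8.06% rose). Without it, 26 members fell and 1 rose (15.7% and 19.4% of 13887 genes), and the median was -0.19 over members and 0.04 over all genes. MRPL45 (chr12:23751921-23766476, minus) fell from 44.02 to 80.1 TPM (median 62.5) in 26 WG libraries to 32.7 to 53.9 TPM (median 43.6) in WL, by 0.61 (SE 0.10, adjusted p = 2.72e-05, edgeR). MRPL33 (-0.60), MRPL34 (-0.59), MRPS14 (-0.54) and MRPL24 (-0.49) fell, and MRPL11 was the one that rose (0.41, SE 0.14, adjusted p = 0.0183). In that fit, 2 of 8 adipocyte and 2 of 8 macrophage markers fell, and 2 of 2 mesothelial and 2 of 5 endothelial markers rose. Of the GOM libraries of low share, 6 of the 10 WL and 3 of the 27 WG ones were also of low PCG share. The part of either was not tested.

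In MAD, 15 members fell and 2 rose among low-share libraries (11.6% and 13.5% of 13831 genes), with a median of -0.13. MRPL45 (-0.67), MRPL33 (-0.62) and MRPS14 (-0.55) fell most, and MRPS25 (0.70) and MRPL52 (0.54) rose, as over all libraries. All 4 tested T cell markers also rose in MAD, with a median log2 fold change of 2.31. Their summed TPM was 27.6 to 585 (median 42.3) in WL and 10.04 to 221 (median 26.4) over all WG libraries of MAD. Of 8 macrophage markers 3 rose, while 3 of 8 adipocyte and 3 of 5 fibroblast or progenitor markers fell. Low PCG share was found in 6 of the 10 WL and 2 of the 18 WG libraries, and the part of either was not tested. In RAD, 8 members were called, all lower (7.55% of 13503 genes fell and 5.54% rose), among them MRPL45 (-0.47), MRPL15 (-0.47) and MRPL51 (-0.44). No cell type marker tested was called in that fit of RAD, where 2 of the 10 WL and 0 of the 23 WG libraries were of low PCG share. MRPL9, MRPL15, MRPL40 and MRPS14 were called lower in each of the 4 ATs in these fits, where the fit of GOM is the one without WG replicate 35. The share of all genes lower in all 4 is not given here. By the paper's design the ATs were taken from the same pigs, so the 4 fits are not independent. The comparisons from NC to WG and from WG to WL share the WG libraries and are not independent of each other.

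**Figure D4:**
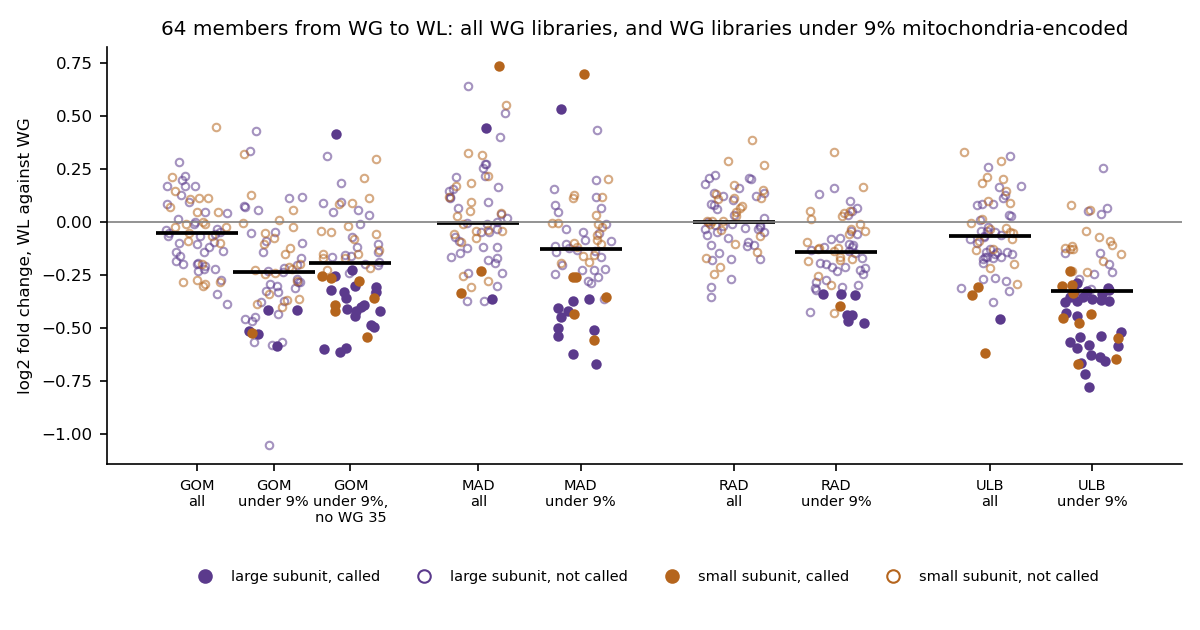
Log2 fold changes of the 64 members from WG to WL in each AT, 1 point per member, over all WG libraries and over low-share WG libraries, with GOM also shown without WG replicate 35. Filled points are called members, black bars are medians, and purple and brown mark the large and small subunits; in ULB the median moves from -0.06 to -0.32.

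NC and WL, the ends of the series, share libraries with the comparisons above. In GOM 26 members rose and 9 fell (25.2% and 27.5% of 14440 genes). MRPL57 rose from 3.89 to 18.6 TPM in NC to 68.8 to 102.35 TPM in WL (log2 fold change 3.24, SE 0.24, adjusted p = 3.65e-09, edgeR). MRPL12 rose from 21.5 to 59.3 TPM to 112 to 156 TPM (1.51, SE 0.16, adjusted p = 2.06e-07), and MRPL28 from 5.75 to 11.4 TPM to 22.3 to 37.9 TPM (1.51, SE 0.15, adjusted p = 7.00e-08). The ranges of NC and WL did not overlap for these 3 genes. All 9 NC libraries were of high share and all 10 WL libraries of low share, so that diet and share cannot be told apart here. MRPL3 (-0.84), MRPL11 (-0.59) and MRPS15 (-0.59) fell.

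Over all libraries, MAD had 9 members that rose and 12 that fell (22.2% and 23.8% of 14170 genes), RAD had 5 and 14 (18.8% and 22.5% of 13782 genes) and ULB had 1 and 10 (6.95% and 11.2% of 13878 genes). In MAD, MRPL57 rose from 3.90 to 132.7 TPM (median 13.9) to 51.1 to 120.4 TPM (median 103), by 1.35 on the log2 scale (SE 0.51, adjusted p = 0.0347, edgeR). MRPS12 (1.33, SE 0.24, adjusted p = 0.000203) and MRPL12 (0.69, SE 0.25, adjusted p = 0.0295) rose as well, and MRPL58 (-0.74), MRPL3 (-0.66) and MRPL34 (-0.65) fell. In RAD, MRPS12 (0.96), MRPS11 (0.76) and MRPL16 (0.47) rose, and MRPL44 (-0.89), MRPL15 (-0.84) and MRPS15 (-0.81) fell. In ULB, MRPS11 rose (0.72), and MRPL15 (-0.99), MRPS18C (-0.88) and MRPL44 (-0.82) fell. The log2 fold changes of MRPL57 (-0.20) and MRPL12 (-0.25) in MAD and of MRPS11 (-0.041) and MRPL16 (-0.085) in RAD had the opposite sign among low-share libraries. Over all libraries of MAD, 6 of 8 macrophage markers rose (median 1.38), as did 4 of 4 T cell markers (3.39) and 3 of 4 B cell markers (4.19). Summed TPM of B cell markers was 10.8 to 28.5 (median 19.2) in NC and 13.4 to 541 (median 20.5) in WL. That of T cell markers was 7.67 to 30.6 (median 15.4) in NC and 27.6 to 585 (median 42.3) in WL. The fold changes of these lists thus lean on the highest WL libraries. Of 8 adipocyte markers 4 fell and 1 rose. In RAD, 4 of 8 macrophage and 2 of 4 smooth muscle markers rose. Without the libraries of low PCG share 4 members were called in MAD (1 higher, 3 lower) and 11 in RAD, all lower. The shares of all genes in these 2 fits are not given here, so the counts cannot be read as particular to the members. The part of cell composition and of the PCG share was not tested further.

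Among low-share libraries every member called from NC to WL in these 3 ATs was lower. They numbered 14 for MAD (7.04% of all genes fell and 2.93% rose), 19 for RAD (8.52% and 5.3%) and 10 for ULB (7.95% and 3.83%). These fits rest on 3, 3 and 2 NC libraries. MRPL15 (chr4:77069074-77083595, minus), a counterpart of a bacterial large subunit protein, led in all 3 ATs, with log2 fold changes of -1.08, -1.23 and -1.23 (SE 0.18, 0.17 and 0.16). In ULB it was at 93.9 to 100.2 TPM in the 2 NC libraries and 42.9 to 57.1 TPM in WL, and the ranges did not overlap.

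A fit over all 12 groups tested whether the change from NC to WG differed between ATs, with no term for the replicate number, also between MAD and ULB. It differed for 11 members between GOM and MAD (10% of 15068 genes), for 5 when GOM was set against RAD (3.57%) and for 2 when GOM was set against ULB (3.88%), and in each case the change was more positive in GOM. MRPL57 differed by 2.92 between GOM and MAD (SE 0.90, adjusted p = 0.0251) and by 3.18 between GOM and ULB (SE 1.00, adjusted p = 0.0480, edgeR). MRPL28 (1.33), MRPL12 (1.29), MRPS11 (0.89) and MRPS34 (0.81) followed between GOM and MAD. MRPL44 (0.78), MRPL12 (1.19), MRPS18B (0.70), MRPL15 (0.64) and MRPL4 (0.62) differed between GOM and RAD, and MRPL35 (0.84) between GOM and ULB. Among high-share libraries the 3 counts were 2, 0 and 1, and without the libraries of low PCG share 0, 0 and 1. These fits rest on fewer libraries. The shares of all genes in them are not given here, so the lower counts cannot be read as particular to the members.

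The other 9 differences gave 0 members by edgeR. For NC to WG, 1.21% of all genes differed between MAD and RAD, 0.883% between MAD and ULB and 0.372% between RAD and ULB, and 2 members in each had an unadjusted p below 0.05. For WG to WL, the shares of all genes were 2.75% (GOM with MAD), 0.0531% (GOM with RAD), 0.995% (GOM with ULB), 3.24% (MAD with RAD), 6.96% (MAD with ULB) and 0.153% (RAD with ULB). The members with an unadjusted p below 0.05 numbered 0, 0, 3, 2, 4 and 1 in that order.

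Between ATs of WG pigs between 1 and 10 members were called in a pair of ATs. These fits had no term for the replicate number. They took same-numbered libraries as independent, although most of these deviated together. Over all libraries, 1 member was higher in MAD than in GOM (6.78% of genes were higher and 7.56% lower), and 4 were higher in RAD than in GOM (15.2% and 15.9%). In ULB against GOM 9 were higher and 1 lower (21.5% and 23.2%), and in RAD against MAD 2 were higher (7.57% and 9.03%). In ULB against MAD 7 were higher and 3 lower (20.2% and 22.2%), and in ULB against RAD 5 were higher and 2 lower (17.8% and 16.9%). MRPL15 had medians of 41.1, 45.7, 49.6 and 55.1 TPM in GOM, MAD, RAD and ULB and was higher in ULB than in GOM by 0.57 on the log2 scale (SE 0.10, adjusted p = 5.43e-07, edgeR). MRPS18C was higher in ULB than in MAD (0.58, SE 0.10, adjusted p = 4.56e-07) and RAD (0.54, SE 0.09, adjusted p = 1.31e-06), with medians of 54.3, 36.5 and 36.6 TPM. MRPL33 was lower in ULB than in GOM (-0.36), MAD (-0.38) and RAD (-0.43). MRPS6 was higher in MAD (0.33), RAD (0.43) and ULB (0.33) than in GOM. The 2 members that were higher in RAD than in MAD were MRPS25 (0.31, SE 0.09, adjusted p = 0.00682) and MRPS7 (0.23, SE 0.08, adjusted p = 0.0461).

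The other members with the largest differences were as follows. In RAD against GOM they were MRPL15 (0.34) and MRPS7 (0.25), and in ULB against GOM MRPS18C (0.39). In ULB against MAD they were MRPL15 (0.40), MRPL20 (0.37), MRPS35 (-0.20) and MRPL58 (-0.19), and in ULB against RAD MRPL15 (0.23), MRPS30 (0.23) and MRPS27 (-0.27). Cell type markers differed between the same libraries. Against GOM, 5 of 8 macrophage markers and 2 of 2 mesothelial markers were lower in each other AT. T cell markers (4 of 4) were lower in RAD and ULB than in GOM, adipocyte markers were higher in MAD (5 of 8) and RAD (7 of 8), and smooth muscle markers were higher in MAD (4 of 4). Fibroblast or progenitor markers were lower than in GOM for 4 of 5 in RAD and 3 of 5 in ULB. ULB had 4 of 4 T cell and 4 of 4 smooth muscle markers lower than MAD and 6 of 8 adipocyte markers lower than RAD. RAD had 4 of 4 smooth muscle and 3 of 4 T cell markers lower than MAD. Their part in the members' values was not tested.

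Libraries of the same replicate number deviated together between MAD and ULB, and with the number as a block 11 members were higher in ULB and 11 lower, beside 26.8% and 27.7% of genes. In the other pairs of ATs most same-numbered libraries also deviated together. More members were called there with the block, as given among the processing alternatives. Among high-share libraries, the members called numbered 4 for GOM with MAD, 15 for GOM with RAD, 16 for GOM with ULB, 0 for MAD with RAD, 16 for MAD with ULB and 14 for RAD with ULB. The shares of all genes were 10.9%, 33.9%, 45.2%, 9.53%, 37.2% and 31.5%. Among low-share libraries the members numbered 0, 4, 12, 0, 19 and 9, and the shares of all genes were 10.3%, 27%, 38.9%, 10.4%, 39.7% and 31.6%. At an unadjusted p below 0.05 there were 2 between GOM and MAD, and 4 and 2 between MAD and RAD. In ULB against MAD, 12 of the 16 called members of the high-share libraries were lower in ULB, and 17 of the 19 of the low-share libraries were higher. This difference between library kinds was not tested.

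Other genes of the pathway were taken as lists. The shares of all genes in the same fits are those given with the members above. Of 57 nuclear genes for respiratory chain subunits, 32 rose and 1 fell from NC to WG in GOM over all libraries. Among high-share libraries of GOM 5 rose and 6 fell, with a median of -0.04. Against low-share WG libraries, 54 of the 57 fell in WL in ULB, with a median of -0.71, and 45 fell in GOM without WG replicate 35, with a median of -0.51. In the same 2 fits, 38 and 7 of the 48 tested cytosolic ribosomal protein genes fell. Of the mitochondria-encoded genes, 12 fell from WG to WL in each AT over all libraries, and 1 or 2 of 12 did among low-share libraries. The low-share libraries were chosen by the summed TPM of these genes, so the smaller count follows from that choice.

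Of 24 genes for mitoribosome assembly and rRNA modification, 7 rose and 0 fell from NC to WG in GOM, and of 18 mitochondrial tRNA synthetases 7 rose and 0 fell. Among high-share libraries these counts were 2 and 4, and 2 and 2. Among low-share libraries of ULB, 7 of 24 assembly genes and 7 of 18 synthetases fell from WG to WL, as did 5 of 13 translation factors. PPARGC1A, the coactivator that drives mitochondrial biogenesis, fell from NC to WG in GOM by 1.62 on the log2 scale (SE 0.42, adjusted p = 0.00237, edgeR), while ESRRA, a nuclear receptor that works with it, rose by 2.09 (SE 0.48, adjusted p = 0.000696). TFAM, which packages mitochondrial DNA (0.38, adjusted p = 0.0664), POLRMT, the mitochondrial RNA polymerase (0.29, adjusted p = 0.0700), and TUFM, a mitochondrial elongation factor (0.07, adjusted p = 0.654), did not pass the test there. Among high-share libraries of GOM, PPARGC1A fell by 1.10 (SE 0.40, adjusted p = 0.0421), and ESRRA did not pass the test (0.35, SE 0.16, adjusted p = 0.107).

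The members co-varied among themselves over the pooled low-share and high-share libraries of WG. Over the libraries of WG, the mean pairwise Pearson correlation of log2 CPM was 0.297 for the 45 GOM, 0.347 for the 36 MAD, 0.371 for the 39 RAD and 0.405 for the 38 ULB libraries. It was 0.728, 0.616, 0.605 and 0.679 for 48 cytosolic ribosomal protein genes and between 0.00 and 0.04 for all genes. All pairs share the same libraries and their depth. Most members were higher in the low-share than in the high-share libraries of each AT, which alone can raise these correlations. The GOM value also includes WG replicate 35. Correlation among low-share or among high-share libraries alone was not tested, so the values do not show co-variation apart from that division. The transcripts of members are short, with a median exon length of 1331 bases against 3134 for all genes, and their exon GC content runs from 35.9 to 70.6% (median 52.6%, against 52.0%). MRPL57, MRPL28 and MRPL12 lie near the top of that range, at 67.6, 65.7 and 65.2%, and MRPS22 near the bottom, at 39.99%. Over 63 members, Spearman's rho between exon GC and the log2 fold change from NC to WG in GOM was 0.44, beside 0.22 over all genes. It was 0.54 beside 0.45 among high-share libraries and 0.30 beside 0.28 without the libraries of low PCG share. In MAD, RAD and ULB it was 0.13, 0.24 and 0.29 over all libraries, beside 0.10, 0.13 and 0.11. The values are a description across genes that share the same libraries.

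Most members lay in the active A compartment of the genome in all groups. The A-B index, a unitless score from Hi-C that is positive in compartment A, was read at the start of 62 members in 20-kb bins. Between 54 and 57 members were in A in 70% or more of a group's samples (87.1 to 91.9%, against 80.5 to 84.8% of 13062 genes). MRPL34 had the highest index, from 7.06 to 8.27 over the 12 group means. MRPS22 (from -2.89 to -0.62, on chromosome 13) and MRPL19 (from -1.93 to -1.16, on chromosome 3) were in B in every group mean. So were MRPS9 (from -0.70 to -0.08) and MRPS35 (from -0.38 to -0.05), nearer to zero. MRPL3, MRPS23 and MRPL16 had group means of both signs and stayed within 1 of zero. From NC to WG in GOM the index was higher for 49 of 62 members, with a median difference of 0.15 against 0.19 for all genes. Once the index was quantile normalized it was higher for 27 of 62, with a median difference of -0.04.

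**Figure D5:**
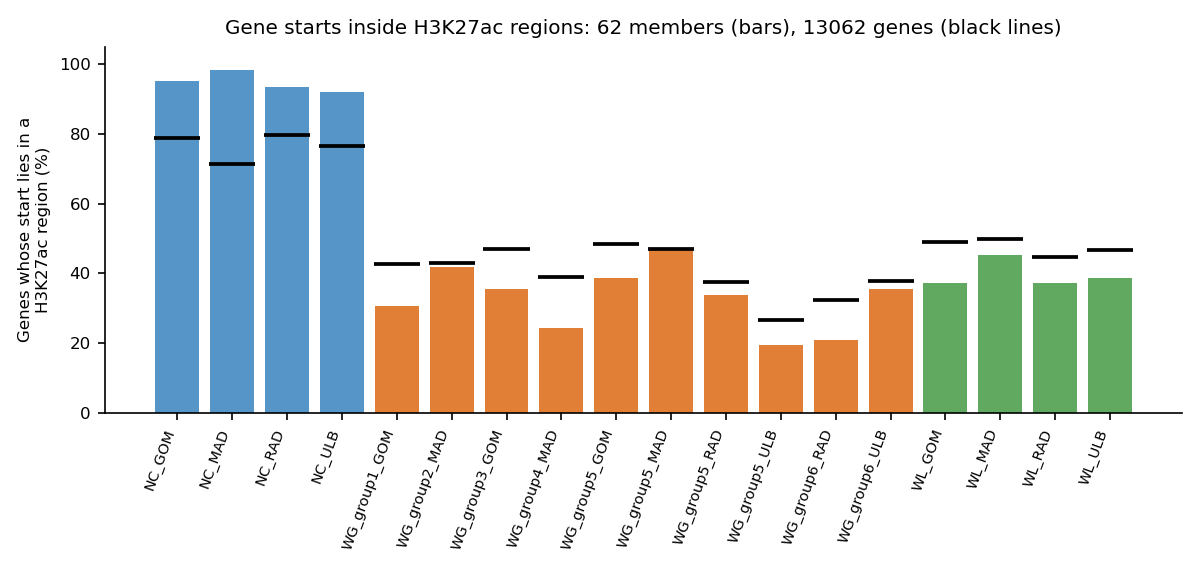
Percent of 62 members whose start lies inside an H3K27ac region in each of 18 tables of the authors, each made from 1 to 11 samples (bars, coloured by nutritional group), beside the percent of 13062 genes (black lines). The 4 NC bars stand above their lines and the 14 WG and WL bars below theirs.

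H3K27ac regions, joined by the authors with the ROSE program, covered the members differently in NC tables than in the others. The NC tables were made from 3 (GOM), 1 (MAD), 2 (RAD) and 3 (ULB) samples, those of WG from 1 to 11 and those of WL from 2 to 4. NC MAD and RAD of WG group 6 rest on 1 sample each. ROSE was set to leave out regions near gene starts when joining, which bears on whether a start lies inside a region. The start of 57 to 61 of 62 members lay inside a region in the 4 NC tables, beside 71.3 to 79.8% of 13062 genes. In WG and WL, where there were 14 such tables, it did so for 12 to 29 members, beside 26.4 to 49.8% of genes. With a flank of 10 kb around the gene body, 60 to 62 members met a region in NC and 36 to 47 in WG and WL, beside 87.96 to 92.9% and 72.3 to 83.2% of genes. The tables held 18143 to 25819 regions, with a total length of 416 to 539 Mb in NC and 283 to 529 Mb in WG and WL. Each table gives 1 value for its group, so no test was made. Between 3 and 25 members met a super-enhancer in a table, beside 6.56 to 31.2% of genes. MRPL52 met one in 15 tables and MRPL33 in 14. MRPL57, MRPL3, MRPL11, MRPL47, MRPL50, MRPS18C and MRPS30 met a region in only 4 tables. Since 60 to 62 of 62 members met a region in each NC table, these low counts mostly restate the division between NC and the other tables.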

How the data were processed

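Total RNA depleted of rRNA was sequenced as stranded libraries, and the authors quantified it with kallisto 0.43.0 on the Ensembl annotation of Sscrofa11.1 and summed transcripts to genes with tximport. The deposited estimated counts per gene were rounded to whole numbers here and used for tests. The deposited TPM values, which the authors scaled to transcript length and library total, were used for levels and shares. The deposited A-B index is a score that the authors computed from Hi-C in 20-kb bins of 18 autosomes. The H3K27ac region tables were made by the authors with BWA 0.7.15, SAMtools 1.3.1, SICER and ROSE, with the replicates of a group pooled where it had several, and the rank score in them was not used beyond the super-enhancer mark. In each of the expression and A-B index tables, 9 NC columns matched no sample and were not used.

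Genes above 0.5 TPM in 80% or more of either group's libraries were tested with edgeR 4.0.16 in R 4.3.3 (TMM, quasi-likelihood), each comparison on its own 2 groups and the differences between ATs on all 12 groups, with Benjamini-Hochberg adjustment over all genes tested and a threshold of 0.05. DESeq2 1.42.0 was an alternative. Other alternatives were no filter, the PCG share or the logarithm of the mitochondria-encoded share as a covariate, subsets of libraries on either side of 9%, leaving out libraries, and the replicate number as a block. In simulated counts, edgeR recovered 34% of 1.5-fold and 80% of 2-fold changes for NC against WG in GOM (14251 genes), and 23% and 52% in ULB (13600 genes). P-values measure the spread between libraries, and the labels do not say whether libraries of 1 group are from separate pigs in all cases. By the paper's design, NC, WG and WL were different pigs, and the ATs were taken from each carcass. Same-numbered WG libraries were taken as paired only between MAD and ULB, where the deviations of each of 30 pairs correlated above 0.1 (lowest 0.249, median 0.577). This pairing comes from the data and not from a label. In the other pairs of ATs the median correlations were 0.508 to 0.583, but single pairs of libraries fell below the limit. The SEs and adjusted p-values given between ATs, also between MAD and ULB, come from fits without the replicate number.

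The genes and gene lists were chosen with earlier results of these data known. Named in each comparison over all libraries were the 3 called members with the largest rise and the 3 with the largest fall, the 5 highest, 5 lowest and 5 most variable members, the MRPS18 genes, MRPL12, MRPS30, 5 regulators, and up to 5 members for each difference between ATs. Members named from fits within low-share or high-share libraries, in the sequence windows, in the A-B index and in the region tables were chosen after their values were seen. Positions and promoters were from RefSeq on Sscrofa11.1, which placed 62 of the 64 members. Further symbols of the same form in RefSeq that matched no gene of the table were not analysed here.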

Additional observations from a re-analysis of the deposited data

Results flagged for a closer look

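In NC GOM, MRPL57 reached 18.6 TPM in replicate 5, and the next highest of the 9 libraries held 10.5 TPM. That gap was 0.549 of the range of the group, above the limit of Dixon's test. It was the 1 library that stood out in 42 tests of groups. Chance alone flags about 1 in 20 tests, so 1 flag in 42 is not more than chance gives.

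The change from NC to WG was more positive in GOM than in MAD for 11 members, by edgeR's test of the difference. The differences in log2 fold change were 0.70 for MRPL4, 1.29 for MRPL12, 1.33 for MRPL28, 0.78 for MRPL37, 0.57 for MRPL54 and 2.92 for MRPL57. They were 0.62 for MRPS2, 0.89 for MRPS11, 0.67 for MRPS18B, 0.45 for MRPS24 and 0.81 for MRPS34. Between GOM and RAD it was more positive in GOM for MRPL4 (0.62), MRPL12 (1.19), MRPL15 (0.64), MRPL44 (0.78) and MRPS18B (0.70). Between GOM and ULB it was so for MRPL35 (0.84) and MRPL57 (3.18). The 9 NC GOM libraries were all of high mitochondria-encoded share, and 7 of them were of low PCG share. The part of either in these differences was not tested beyond the subsets and covariates given among the processing alternatives.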

How the results depend on the processing

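Settings that use the mitochondria-encoded share or leave out WG GOM replicate 35 were chosen after seeing the data. Counts of members are given below without the share of all genes in the same fit. They do not separate a change in the members from one in all genes. Counts of called members stayed within 1.5 times of the reported ones without a filter on low genes in all 12 diet comparisons, and with DESeq2 in 9 of 12 (exceptions WG to WL, 1 in GOM, 8 in MAD and 1 in RAD). In NC to WG, GOM gave 35 with the PCG share as a covariate, 2 without libraries of low PCG share, 4 with the mitochondria-encoded share as a covariate, 11 within high-share libraries and 35 without WG replicate 35, against 21. MAD gave 2 without low PCG share, 15 with the mitochondria-encoded covariate and 0 within low-share libraries, against 7. RAD gave 15 with the PCG covariate, 10 without low PCG share, 35 with the mitochondria-encoded covariate and 7 within low-share libraries, against 23. ULB gave 0 with the PCG covariate and without low PCG share, 7 with the mitochondria-encoded covariate, 12 within high-share and 0 within low-share libraries, against 3, and 0 to 4 when each NC library was left out. In WG to WL, the mitochondria-encoded covariate gave 26, 21, 31 and 44 in GOM, MAD, RAD and ULB, and low-share libraries gave 6, 17, 8 and 39, against 0, 5, 0 and 4. GOM gave 4 without WG replicate 35 and 27 within low-share libraries without it. The PCG covariate gave 2 for MAD, 3 for RAD and 7 for ULB, and leaving out low PCG share gave 0 in MAD and 4 in RAD. In NC to WL, GOM gave 5 with the mitochondria-encoded covariate (against 35), MAD 12 with the PCG covariate and 4 without low PCG share (against 21), RAD 11 without low PCG share (against 19), and ULB 7 to 14 with each NC library left out (against 11, with 7 without replicate 9).

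Between ATs in WG, with the replicate block the counts were 11 for GOM and MAD, 20 for GOM and RAD, 30 for GOM and ULB, 9 for MAD and RAD, 22 for MAD and ULB and 25 for RAD and ULB, against 1, 4, 10, 2, 10 and 7. The rule for pairing asked that each same-numbered pair of libraries correlate above 0.1. Of GOM and MAD 35 of 36 did, of GOM and RAD 37 of 39 and of GOM and ULB 37 of 38. Of MAD and RAD 30 of 31 did, and of RAD and ULB 32 of 33. The lowest correlations there were -0.32 to 0.05 and the medians 0.508 to 0.583, beside medians of -0.08 to -0.03 for unlike numbers. Counts without the block leave out this likeness. With the mitochondria-encoded covariate the counts were 4, 13, 25, 1, 19 and 20, within high-share libraries 4, 15, 16, 0, 16 and 14, and within low-share libraries 0, 4, 12, 0, 19 and 9. Low-share libraries without WG GOM replicate 35 gave 3, 7 and 27 for the pairs with GOM. GOM and MAD gave 2 with DESeq2, 5 without replicate 35 and 4 without low PCG share. The PCG covariate gave 7 for GOM and RAD and 17 for GOM and ULB. MAD and RAD gave 1 without a filter and 1 without low PCG share, and RAD and ULB gave 4 without a filter. No paired analysis was possible for the diet comparisons because, by the paper's design, NC, WG and WL were different pigs.

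For the differences between ATs from NC to WG, GOM and MAD gave 28 with the PCG covariate, 0 without low PCG share, 2 within high-share libraries and 7 without replicate 35, against 11. GOM and RAD gave 20, 0, 0 and, with the mitochondria-encoded covariate, 9, against 5, and GOM and ULB gave 17 with the PCG covariate and 1 in each of the other 4 settings, against 2. MAD and RAD gave 1 with the mitochondria-encoded covariate and 1 without replicate 35, and MAD and ULB and RAD and ULB each gave 1 within high-share libraries, against 0. From WG to WL, MAD and ULB gave 2 without replicate 35, and RAD and ULB gave 1 with the mitochondria-encoded covariate, without low PCG share and without replicate 35, against 0. With a flank of 0 kb, 29 members met a region in RAD of WG group 5, 20 in ULB of group 5 and 26 in RAD of group 6, against 45, 36 and 42. Log2 fold changes that turned were those of MRPL16 from NC to WG in RAD (-0.027) and MRPL35 in ULB (0.088) within low-share libraries. From NC to WL they were those of MRPL57 in MAD (-0.85 with the mitochondria-encoded covariate and -0.20 within low-share libraries), MRPL12 in MAD (-0.62 and -0.25), MRPS11 in RAD (-0.13 and -0.041) and MRPL16 in RAD (-0.16 and -0.085). The cause was not tested. The 5 NC ULB libraries and the 2 or 3 NC libraries of low share limit what those comparisons can detect.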
